A study of Capra hircus with 6 samples.

Results

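The genes described here are 40 goat genes that interferons induce or that carry the interferon signal into the cell, measured in the hypothalamus before and at puberty. They were listed with the difference between the stages already in view, because several genes of this kind had stood apart in these same libraries. For that reason their differences between the stages are given as a description, with no test. Of the 40 genes, 36 had a row in the mRNA table, which holds 20225 genes, and IFIT1, OAS2, MX2 and USP18 were not analysed here. All 36 had a mean of at least 0.1 FPKM over the 6 libraries, as did 16397 genes in all. FPKM counts sequenced fragments per unit of transcript length and of library depth, so levels of different genes can be compared on it. The lowest value of any of the 36 genes in any library was 0.155 FPKM, so that none was kept only through the stage in which it was higher.

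The animals were female Anhuai goats kept under the same conditions on 1 farm, with 1 strand-specific library of rRNA-depleted RNA per goat. The 3 prepubertal goats were 2.5 to 3 months old and the 3 pubertal goats were 4.5 to 5 months old. Puberty was judged by males detecting estrus and by the look of the vulva, and the pubertal goats were taken in the late follicular phase. Age, growth, puberty and the phase of the ovarian cycle therefore cannot be told apart. The libraries are called pubertal 1 to 3 and prepubertal 1 to 3, and values for a stage are given in that order. The tissue is a mixture of cells, in which more cells of a type and more RNA per cell cannot be told apart.

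Interferons are secreted proteins that cells make when they sense foreign or misplaced nucleic acid. Type I interferons bind the receptor chains IFNAR1 and IFNAR2, whose kinases activate STAT proteins such as STAT2, and these join IRF9 to form a transcription factor that switches on the interferon-stimulated genes. Many of these genes encode sensors of viral RNA, enzymes that stop viral translation or replication, and the small ubiquitin-like protein ISG15, and in brain they are made by microglia, astrocytes, endothelium and neurons.

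The depth and the makeup of the libraries were examined first. The shallowest library (pubertal 3) held about 0.731 of the fragments of the deepest (prepubertal 3). By the FPKM that 1 fragment was worth, 29 of the 36 genes rested on about 100 fragments or more in every library, and ZBP1, the weakest, on about 12 to 155. Hypothalamic markers, 12 of 16 with a row, were present in every library. Their sums were 1300 to 2441 FPKM in pubertal and 1598 to 2509 FPKM in prepubertal libraries. Of the 11 with a mean of at least 0.1 FPKM, 3 were higher and 8 lower on average in pubertal goats. PMCH, the precursor of melanin-concentrating hormone, was at 673 to 2173 FPKM, whereas AVP was listed at 0 in all 6. Pubertal 3 stood apart by 335 FPKM of summed choroid plexus markers, mostly TTR at 309 FPKM, against 11.0 to 63.1 in the other libraries. The summed markers of leptomeningeal fibroblasts (166 to 350 FPKM in pubertal and 104 to 141 in prepubertal libraries) and of the anterior pituitary (52.8 to 66.04 and 3.75 to 20.9 FPKM) did not overlap between the stages. All 7 fibroblast markers had a row and 6 were higher on average in pubertal goats, while 6 of 8 pituitary markers had one, most of the sum was CGA, and GH1 was listed at 0 in 5 libraries. Each result below is a comparison of these libraries, and the part that such tissue at the border of the dissection had in it was not tested.

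Most of the interferon-stimulated genes were higher in the pubertal goats. The mean on the log2(FPKM + 1) scale was higher in pubertal goats for 33 of the 36 genes, and in 23 genes every pubertal library lay above every prepubertal library. No gene of the list had its pubertal libraries all below the prepubertal ones. Over all genes tested, 49.8% were higher in pubertal goats, 5.91% lay wholly above and 3.84% wholly below. The genes were listed for this contrast, so nothing is read from these shares about the list. The median log2 difference, pubertal minus prepubertal, was 0.44 for the 36 genes, with a range from -0.02 to 1.08, beside a median of -0.00065 for all genes tested. Summed over the 36 genes, the level was 857, 771 and 959 FPKM in the pubertal libraries and 575, 596 and 591 FPKM in the prepubertal libraries. The lowest pubertal sum was thus above the highest prepubertal sum, and the pubertal sums were spread more widely (SD 94.0 against 11.1 FPKM, n = 3 each).

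**Figure D1:**
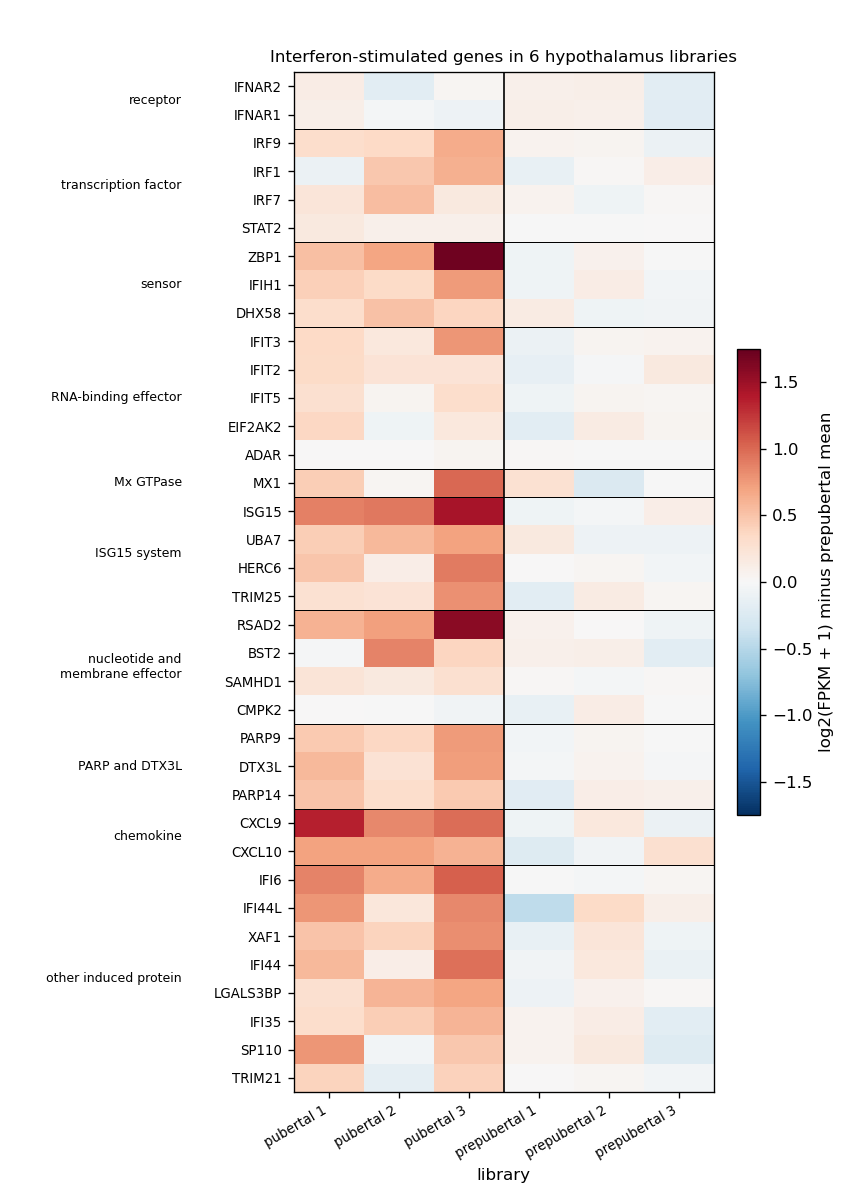
Heat map of log2(FPKM + 1) minus the prepubertal mean of the gene, with 36 interferon-stimulated genes in rows, grouped by role, and the 6 libraries in columns. Red fills most of the 3 pubertal columns, deepest in pubertal 3, while both receptor genes, ADAR and CMPK2 stay pale in all 6.

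In the order of all 16397 genes by log2 difference, 4 of the 36 genes stood among the top 100, 17 among the top 500, 25 among the top 1000 and 30 among the top 2000. The highest was ISG15 at rank 71, followed by CXCL9 at 74, ZBP1 at 95 and RSAD2 at 99. At the other end, ADAR was at rank 7081, IFNAR2 at 8337, IFNAR1 at 8649 and CMPK2 at 9081, near the middle of all genes.

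**Figure D2:**
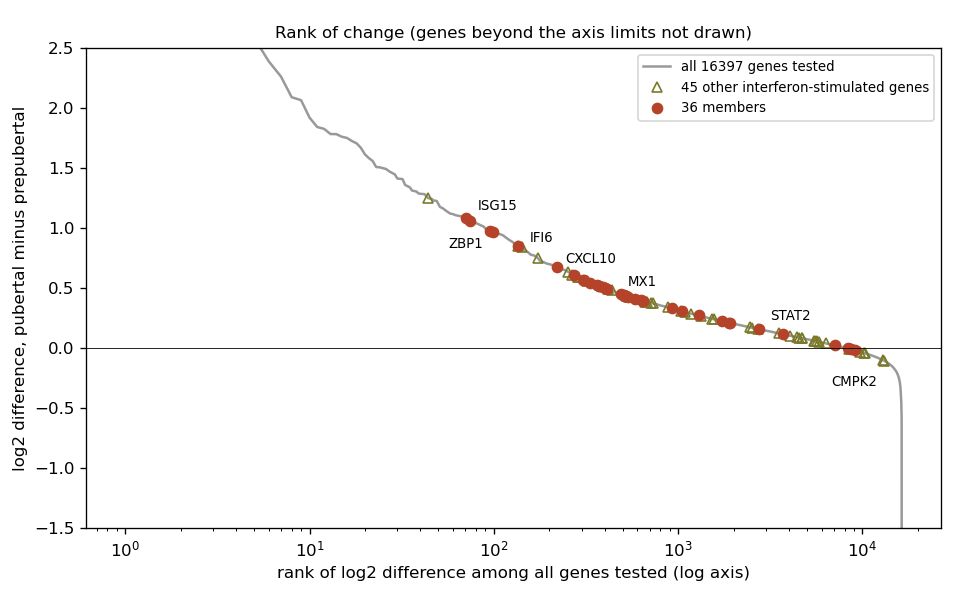
The log2 difference (pubertal minus prepubertal) of all genes tested against their rank on a log axis, as a grey line, with the 36 interferon-stimulated genes as filled circles and 45 other interferon-stimulated genes as open triangles. ISG15 is the first circle at rank 71 and CMPK2 the last at rank 9081.

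The test over all genes sets the scale. With limma and Benjamini-Hochberg adjustment, 0 of the 16397 genes (0%) had an adjusted p under 0.05. At an unadjusted p under 0.05 there were 846 genes (5.16%), of which 575 (3.51%) were higher and 271 (1.65%) lower in pubertal goats. The share of higher genes among the 846 was 68.0%, and it was 52.7% when each library was centred on its median (454 higher and 407 lower) and 55.1% with quantile normalization (462 and 377). Each library was 1 goat, and the p-values measure the spread between these 6 goats only.

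Both chains of the type I interferon receptor differed between the stages by less than their spread among goats. IFNAR1 was at 36.02, 32.7 and 31.5 FPKM in the pubertal goats and at 36.1, 35.9 and 29.3 FPKM in the prepubertal goats. IFNAR2 was at 10.6, 8.30 and 9.89 FPKM in the pubertal goats and at 10.3, 10.3 and 8.31 FPKM in the prepubertal goats. The ranges overlapped almost wholly. The log2 differences were -0.0095 ± 0.11 (SE) and -0.0036 ± 0.13 (SE).

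The 4 transcription factors of the list were all higher in pubertal goats, by a median of 0.32 on the log2 scale. IRF9, the DNA-binding part of the factor that it forms with STAT proteins, was at 25.2, 26.1 and 32.2 FPKM in the pubertal goats and at 21.1, 21.0 and 18.7 FPKM in the prepubertal goats. Its partner STAT2 differed less, at 33.7, 31.9 and 31.8 FPKM against 29.8, 29.7 and 30.1 FPKM. The stages did not overlap in either gene, although the log2 difference was 0.43 for IRF9 and 0.12 for STAT2. IRF7, which drives the genes of type I interferons, was at 8.72, 11.1 and 8.39 FPKM against 7.73, 6.95 and 7.48 FPKM, without overlap. IRF1, which responds to interferon gamma as well, was at 6.999 FPKM in pubertal 1, within the prepubertal range of 6.87 to 8.31 FPKM, and at 11.0 and 12.3 FPKM in pubertal 2 and 3. The stages thus overlapped in IRF1 alone of the 4. Its log2 difference was 0.33, and 0.18 without pubertal 3 and 0.55 without pubertal 1. That of IRF7 was 0.30, and 0.19 without pubertal 2.

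All 3 sensors of nucleic acid in the list lay higher in every pubertal library. ZBP1, which binds left-handed double-stranded nucleic acid and can start necroptosis, was at 0.751, 0.951 and 2.95 FPKM in the pubertal goats and at 0.155, 0.280 and 0.205 FPKM in the prepubertal goats. Its means, 1.55 ± 1.21 against 0.214 ± 0.0631 FPKM (SD, n = 3), stood at a ratio of 7.26, the largest of the list, while its log2 difference was 0.97, since adding 1 to each FPKM shrinks the difference of a weak gene. With 0.1 added instead it was 2.18, and without pubertal 3 it was 0.61. The gene was thus low in every prepubertal goat and uneven among the pubertal goats. IFIH1, the cytosolic sensor of long double-stranded RNA also called MDA5, was at 3.07, 2.84 and 4.10 FPKM against 1.89, 2.34 and 1.94 FPKM. DHX58, or LGP2, which assists IFIH1, was at 11.9, 13.8 and 12.5 FPKM against 10.5, 8.85 and 8.93 FPKM. DHX58 was thus highest in pubertal 2, where ZBP1 and IFIH1 were not.

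The 5 measured effectors that bind RNA were all higher on average in pubertal goats, by a median of 0.21 on the log2 scale, with no overlap in 2. IFIT3, which stabilises the complex of IFIT proteins on viral RNA, was at 16.2, 14.4 and 22.1 FPKM in the pubertal goats and at 11.5, 13.0 and 13.1 FPKM in the prepubertal goats. IFIT2 was at 9.22, 8.58 and 8.56 FPKM against 6.32, 7.02 and 8.09 FPKM, also without overlap. IFIT5, the most abundant of the 3 IFIT genes, was at 47.7, 40.2 and 48.3 FPKM against 37.0, 40.2 and 39.9 FPKM, where pubertal 2 was just under prepubertal 2. The log2 differences of these 3 genes were 0.44, 0.27 and 0.21, and that of IFIT3 was 0.27 without pubertal 3. EIF2AK2, the kinase PKR that halts translation on double-stranded RNA, was at 51.5, 38.0 and 45.5 FPKM against 34.9, 44.2 and 41.4 FPKM, with pubertal 2 below 2 of the prepubertal libraries. Its log2 difference was 0.16, and 0.05 without pubertal 1. The stages thus overlapped in IFIT5 and EIF2AK2, both among the most abundant genes of the list. ADAR, which edits adenosine in double-stranded RNA and is made without interferon as well, lay between 20.8 and 21.5 FPKM in pubertal and between 20.5 and 21.0 FPKM in the prepubertal goats. IFIT genes are related to each other, as are MX1 and MX2, and IFI44 and IFI44L. Their sequences were not compared here, and how any fragments shared by related genes were assigned is a limit on their values.

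MX1, a dynamin-like GTPase that traps viral nucleocapsids, was uneven among the goats of both stages. It was at 28.5, 21.4 and 42.9 FPKM in the pubertal goats and at 25.3, 17.2 and 20.6 FPKM in the prepubertal goats. Pubertal 2 lay below prepubertal 1, and the log2 difference of 0.49 was 0.24 without pubertal 3.

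The stages did not overlap in any of the 4 measured genes of the ISG15 system. ISG15, the ubiquitin-like protein that is joined to newly made proteins, was at 48.1, 49.2 and 70.8 FPKM in the pubertal goats and at 24.2, 24.9 and 27.7 FPKM in the prepubertal goats. Every pubertal library was at least 1.74 times the highest prepubertal library, and the means of 56.0 ± 12.8 and 25.6 ± 1.85 FPKM (SD, n = 3) differed by 1.08 ± 0.15 (SE) on the log2 scale. UBA7, the enzyme that activates ISG15, was at 4.66, 5.21 and 5.82 FPKM against 3.71, 2.95 and 2.94 FPKM. HERC6, a HERC-family ligase that joins ISG15 to its targets in some mammals, was at 2.24, 1.503 and 3.33 FPKM against 1.32, 1.36 and 1.23 FPKM, so that pubertal 2 was close to the prepubertal goats. TRIM25, a ligase that takes part in ISG15 transfer and in RIG-I signalling, was at 3.62, 3.52 and 5.68 FPKM against 2.38, 3.23 and 2.92 FPKM. Without pubertal 3 the log2 differences of HERC6 and TRIM25 went from 0.51 and 0.44 to 0.31 and 0.26.

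**Figure D3:**
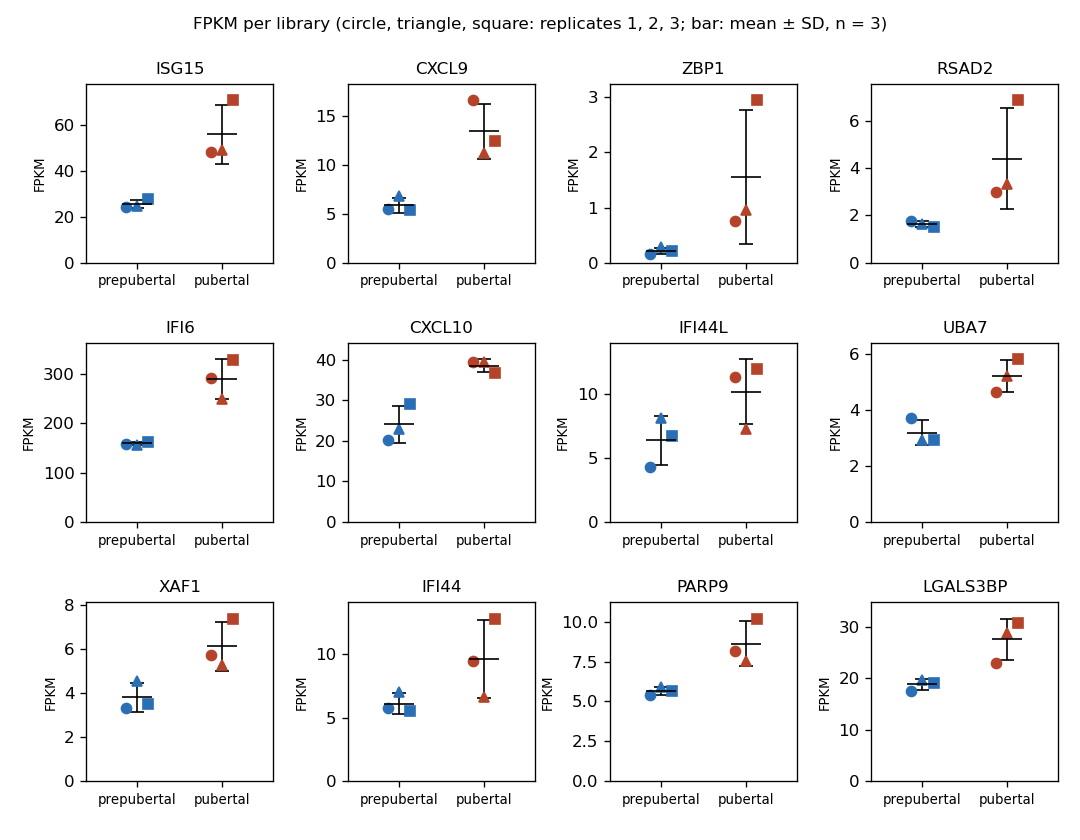
FPKM of the 12 interferon-stimulated genes with the largest log2 difference, in 3 prepubertal (blue) and 3 pubertal (red) libraries, with the replicate shown by the symbol and the mean ± SD (n = 3) by the black bars. The stages do not overlap in 10 of the 12 genes, and they do in IFI44L and IFI44, where pubertal 2 (red triangle) falls among the prepubertal values.

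Effectors that act on nucleotides or at membranes split into separate patterns. RSAD2, or viperin, which makes a chain-terminating nucleotide, was at 2.99, 3.33 and 6.85 FPKM in the pubertal goats and at 1.76, 1.65 and 1.49 FPKM in the prepubertal goats. CMPK2, a nucleotide kinase whose gene lies next to RSAD2, was at 19.4, 19.1 and 18.5 FPKM against 17.5, 21.2 and 19.1 FPKM. The neighbouring genes thus differed by 0.97 ± 0.24 (SE) and -0.02 ± 0.10 (SE) on the log2 scale, and CMPK2 was the more abundant of the pair in every library. SAMHD1, which breaks down deoxynucleotides, was at 9.48, 9.05 and 9.91 FPKM against 8.09, 7.72 and 8.11 FPKM, a small difference of 0.22 with no overlap. BST2, or tetherin, which holds budding virus at the cell surface, was at 1.93, 4.44 and 2.87 FPKM against 2.17, 2.18 and 1.61 FPKM. BST2 was lowest of the pubertal libraries in pubertal 1, inside the prepubertal range, and its log2 difference of 0.41 was 0.18 without pubertal 2 and 0.63 without pubertal 1.

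The PARP and DTX3L genes, whose proteins attach ADP-ribose or form the PARP9 and DTX3L complex, gave 3 of 3 without overlap. PARP9 was at 8.16, 7.54 and 10.2 FPKM in the pubertal goats and at 5.41, 5.91 and 5.65 FPKM in the prepubertal goats. DTX3L, a ubiquitin ligase that binds PARP9, was at 8.45, 6.62 and 9.66 FPKM against 5.22, 5.65 and 5.32 FPKM. PARP14 was at 10.5, 8.998 and 10.2 FPKM against 6.06, 7.74 and 7.57 FPKM. These genes lie side by side in the goat gene order, and PARP9 and DTX3L put the 6 libraries in the same order, with pubertal 3 first and prepubertal 1 last.

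Both chemokines of the list, which attract T cells and NK cells through CXCR3, lay wholly higher in pubertal goats. CXCL9, induced above all by interferon gamma, was at 16.6, 11.2 and 12.5 FPKM in the pubertal goats and at 5.49, 6.77 and 5.34 FPKM in the prepubertal goats, with means of 13.4 ± 2.81 and 5.86 ± 0.786 FPKM (SD, n = 3). CXCL10 was at 39.4, 39.5 and 36.9 FPKM against 20.3, 22.9 and 29.1 FPKM, with means of 38.6 ± 1.49 and 24.1 ± 4.49 FPKM (SD, n = 3). The log2 differences were 1.06 ± 0.16 (SE) and 0.67 ± 0.13 (SE). Unlike most of the list, CXCL9 was highest in pubertal 1 and CXCL10 was lowest of the pubertal libraries in pubertal 3, so that the differences did not turn on that library.

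The other induced genes were led by IFI6, a membrane protein of the endoplasmic reticulum and mitochondria and the most abundant gene of the list. IFI6 was at 292, 249 and 328 FPKM in the pubertal goats and at 159, 155 and 163 FPKM in the prepubertal goats, and made up 26.1% to 34.3% of the summed FPKM of the 36 genes. Its means of 289.9 ± 39.7 and 159 ± 3.98 FPKM (SD, n = 3) gave a ratio of 1.82 and a log2 difference of 0.85 ± 0.11 (SE). IFI6 was even among the prepubertal goats and higher in each pubertal goat. XAF1, which promotes cell death, was at 5.71, 5.27 and 7.36 FPKM against 3.34, 4.54 and 3.50 FPKM. LGALS3BP, a secreted galectin-binding protein, was at 23.0, 28.9 and 30.8 FPKM against 17.6, 19.8 and 19.1 FPKM. IFI35, which binds NMI, was at 10.5, 11.6 and 13.1 FPKM against 8.69, 9.15 and 7.17 FPKM. None of these 4 genes overlapped between the stages.

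In the remaining 4 of this group the stages overlapped, each time because pubertal 2 fell into or below the prepubertal range. IFI44L was at 11.4, 7.29 and 11.97 FPKM against 4.30, 8.12 and 6.75 FPKM. IFI44, its neighbour and close relative, was at 9.44, 6.64 and 12.8 FPKM against 5.77, 7.01 and 5.51 FPKM. Both genes were highest in pubertal 3. SP110, a nuclear body protein, was at 6.82, 3.43 and 5.35 FPKM against 3.77, 4.16 and 2.93 FPKM. TRIM21, a cytosolic antibody receptor, was at 11.0, 7.25 and 11.2 FPKM against 8.26, 8.45 and 7.90 FPKM, and there pubertal 2 was the lowest of the 6. The log2 differences were 0.61, 0.55, 0.39 and 0.21. They were 0.39 for IFI44L without prepubertal 1, 0.34 and 0.11 for IFI44 and TRIM21 without pubertal 3, and 0.21 for SP110 without pubertal 1.

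The levels of the genes spanned a wide range. By the mean over the 6 libraries, IFI6 at 224 FPKM was followed by EIF2AK2 at 42.6, IFIT5 at 42.2, ISG15 at 40.8 and IFNAR1 at 33.6 FPKM. In all, 15 genes had a mean of at least 10 FPKM, 21 were below that, and 9 were below 5 FPKM, down to HERC6 at 1.83 and ZBP1 at 0.882 FPKM. The median of the 36 means was 8.94 FPKM, beside 9.78 FPKM for all genes tested.

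The 36 genes held 67 annotated transcripts, with more than 1 in 14 genes, and 59 of the 67 had a mean of at least 0.1 FPKM. Of these, 49 were higher and 10 lower in pubertal goats. In the 14 genes with more than 1 transcript, 7 of 37 transcripts at that level were lower. In CXCL9 a single transcript (XM_005681789.2) made up 98.4% of the level, at 13.3 ± 2.82 against 5.63 ± 0.772 FPKM (SD, n = 3), and the other was lower in pubertal goats at under 0.3 FPKM in every library. In PARP9 the difference sat mainly in XM_005675028.2, at 5.13 ± 0.916 against 2.77 ± 0.192 FPKM, while XM_013963262.1 was at 3.50 ± 1.54 against 2.88 ± 0.442 FPKM (SD, n = 3). In IFI44, XM_013962707.1 and XM_005678196.2 were higher in pubertal goats, at 5.84 ± 3.03 against 3.03 ± 0.993 and 2.11 ± 0.780 against 0.974 ± 0.141 FPKM, and the 2 weaker transcripts were not. SP110 had 8 transcripts, and its main one (XM_005676663.2) differed little, at 2.34 ± 0.840 against 2.09 ± 0.646 FPKM. When the most abundant transcript stood for the gene, 33 of the 36 genes were higher and the median log2 difference was 0.45.

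The libraries of a stage were not alike in these genes. Relative to the prepubertal mean, the median gene of the list was at 0.37, 0.28 and 0.64 on the log2 scale in pubertal 1, 2 and 3, and at -0.05, 0.05 and -0.01 in the prepubertal libraries. Pubertal 3 held the highest pubertal value of 23 of the 36 genes (63.9%) and pubertal 2 the lowest of 20 (55.6%), beside 30.8% and 33.9% of all genes tested. Pubertal 3 was also the library with the choroid plexus markers and the highest fibroblast markers, and the part of that tissue in its values was not tested. Without pubertal 3, 35 of the 36 genes were higher in pubertal goats and the median log2 difference was 0.36. Among the prepubertal goats, prepubertal 2 held the highest value of 20 genes and prepubertal 1 the lowest of 17.

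Across the 6 libraries most of the genes went up and down together. The median Pearson r over the 630 pairs of the 36 genes was 0.702, and 90.2% of the pairs were above 0, beside a median of -0.00176 and 49.9% for all pairs of genes tested. The stages separate the libraries in most of these genes, which gives high r by itself. With the mean of each stage subtracted, the median was 0.292 and 67.8% of the pairs were above 0, beside -0.00202 and 49.9%. For the 45 other interferon-stimulated genes the median was 0.322, with 70.9% of the pairs above 0. With the stage means subtracted it was 0.0754, with 54.8% above 0, less than for the 36 genes. These values rest on 6 libraries and are given without a test. PARP9, RSAD2 and DTX3L went most closely with the rest within the stages (median r with the other genes 0.670, 0.659 and 0.656). IRF7, DHX58 and BST2 went against it (-0.595, -0.451 and -0.301), and these 3, with CXCL10, were the 4 genes that were highest in pubertal 2 among the pubertal libraries.

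Genes next to each other on the chromosome were alike to different degrees. Over the 6 libraries r was 0.978 for PARP9 and DTX3L, 0.899 for DTX3L and PARP14, 0.867 for IFI44L and IFI44, and 0.851 for CXCL9 and CXCL10. With the stage means subtracted, the first pair was at 0.909, the third at 0.731 and the chemokines at -0.0977. IFIT3 and IFIT2 were at 0.683 and 0.15 on these measures. RSAD2 and CMPK2 were at -0.257 and -0.296.

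The other genes of the pathway, which the list does not hold, were tested with all genes. Of 143 gene symbols searched, some of them second names of the same gene, 99 had a row and 94 a mean of at least 0.1 FPKM. Among 26 genes of interferon receptor signalling 19 were higher and 7 lower, among 22 of nucleic acid sensing 19 and 3, and among 45 other interferon-stimulated genes 38 and 7. The median log2 differences were 0.06, 0.10 and 0.24, so that most genes of the pathway outside the list also lay on the higher side. With limma and Benjamini-Hochberg adjustment over all genes none of the 94 genes of these lists and of the interferon genes had an adjusted p under 0.05, and the lowest was 0.318. At an unadjusted p under 0.05 there were 23 of the 94 genes (24.5%), all higher in pubertal goats, beside 3.51% of all genes tested that were higher at that p. Of the 23, 19 were other interferon-stimulated genes, and the whole number was 18 to 25 when single libraries were left out. The pubertal libraries lay wholly above in 27 of the 94 genes (28.7%, beside 5.91% of all genes tested), and in none wholly below. The pathway lists, like the list of 40, were chosen with earlier results of these data known.

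**Figure D4:**
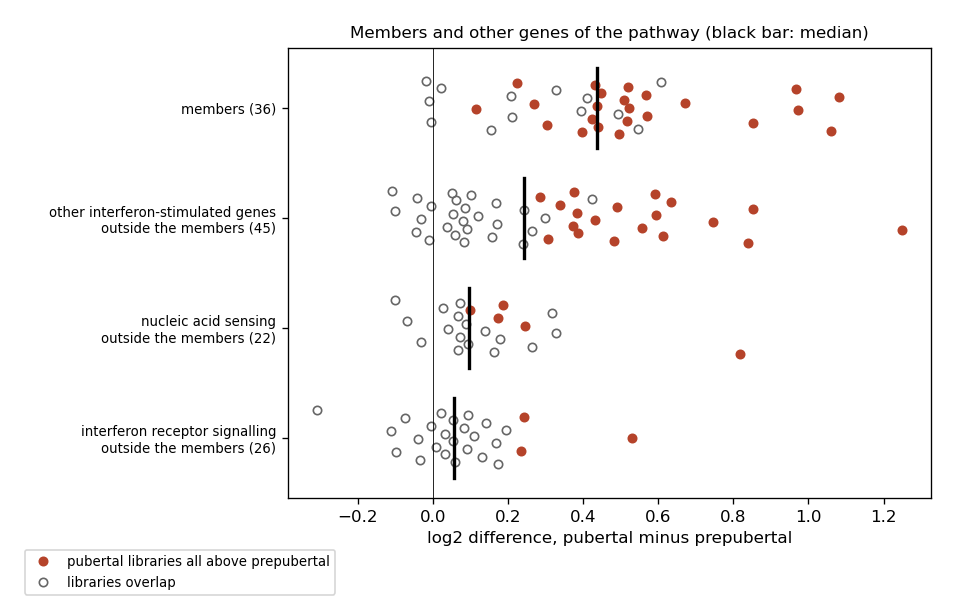
The log2 difference (pubertal minus prepubertal) of each gene in the list of 36 and in 3 lists of other pathway genes, with the number of genes in brackets, the median as a black bar, and filled circles where all pubertal libraries lay above all prepubertal ones. Medians go from 0.44 for the 36 genes to 0.24, 0.10 and 0.06 for the other lists.

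Among the other interferon-stimulated genes, SERPING1, the inhibitor of complement C1, was at 3.88, 8.35 and 12.9 FPKM in the pubertal goats and at 2.72, 3.18 and 2.04 FPKM in the prepubertal goats (log2 difference 1.25, limma adjusted p = 0.779). RTP4, a receptor transporter induced by interferon, was at 4.58, 5.19 and 8.47 FPKM against 2.89, 2.38 and 3.23 FPKM (0.85, limma adjusted p = 0.733). CXCL11, the third ligand of CXCR3, was at 1.19, 1.69 and 1.70 FPKM against 0.274, 0.417 and 0.538 FPKM (0.84, limma adjusted p = 0.318). All 3 ligands of that receptor thus had their pubertal libraries above the prepubertal ones, CXCL11 at about 6 fragments in its lowest library. SERPING1 and RTP4 were highest in pubertal 3, like most of the 36 genes.

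Among the sensing genes, DDX58, or RIG-I, was at 9.81, 9.34 and 15.2 FPKM in the pubertal goats and at 4.93, 5.85 and 7.11 FPKM in the prepubertal goats (log2 difference 0.82, limma adjusted p = 0.733). NLRC5, which drives MHC class I genes, was at 0.811, 0.847 and 0.827 FPKM against 0.591, 0.480 and 0.556 FPKM (0.25, limma adjusted p = 0.958). TLR8, a receptor of single-stranded RNA, was at 1.61, 1.47 and 1.95 FPKM against 1.27, 1.44 and 1.32 FPKM (0.19, limma adjusted p = 0.962). With IFIH1 and DHX58 in the list, all 3 RIG-I-like receptors lay wholly higher in pubertal goats.

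Within receptor signalling the stages did not overlap in SOCS3 and TYK2. SOCS3, a feedback inhibitor of STAT signalling, was at 1.32, 1.92 and 1.87 FPKM in the pubertal goats and at 0.952, 0.806 and 0.827 FPKM in the prepubertal goats (log2 difference 0.53, limma adjusted p = 0.733). TYK2, the kinase bound to IFNAR1, was at 6.59, 6.31 and 8.29 FPKM against 5.79, 6.22 and 5.45 FPKM (0.24, limma adjusted p = 0.962).

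Few of the interferon genes themselves could be measured. Of 13 interferon genes searched, 4 had a row, and those without one, IFNB1 among them, were not measured here. IFNK alone reached a mean of 0.1 FPKM, on about 11 fragments in its lowest library. It was at 0.697, 1.33 and 1.18 FPKM in the pubertal and at 0.598, 1.01 and 0.491 FPKM in the prepubertal goats, with overlap. IFNG was listed at 0.177, 0.313 and 0 FPKM in the pubertal goats and at 0 in all prepubertal libraries, so that no fold is given. IFNA was at most 0.160 FPKM and IFNE was listed at 0 in every library.

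Markers of cells that could bring such transcripts were set beside these values. The summed markers of microglia, all 14 with a row, were at 517 to 622 FPKM in the pubertal goats and at 489 to 550 FPKM in the prepubertal goats, so that the sums overlapped. Of the 14, 10 were higher on average in pubertal goats and 4 (C1QA, C1QB, C1QC and ITGAM) lay wholly higher, none lay wholly lower, and AIF1, CX3CR1, P2RY12 and TMEM119 overlapped between the stages. T and NK cell markers (11 of 12 with a row) were at 30.2 to 39.7 and 34.3 to 41.2 FPKM, B and plasma cell markers (7 of 8) at 12.1 to 15.3 and 12.2 to 14.8 FPKM, neutrophil markers (6 of 7) at 2.91 to 5.39 and 3.39 to 4.94 FPKM, and dendritic cell markers (6 of 8) at 17.4 to 20.4 and 15.1 to 24.0 FPKM. Of the T and NK cell markers 8 of 11 were higher on average in pubertal goats, and of the B and plasma cell markers 6 of 7. The T and NK cell sum was mostly CD247, at 18.9 to 24.9 FPKM in the pubertal and 24.7 to 25.4 FPKM in the prepubertal goats, and LCK, whereas CD2, a surface protein of T and NK cells, lay wholly higher at 0.421, 0.423 and 0.783 against 0.036, 0.152 and 0.0886 FPKM. The part of these cells in the values of the 36 genes was not tested. Endothelial markers (8 of 9) were at 50.9 to 76.0 and 43.5 to 60.1 FPKM, astrocyte markers (7 of 7) at 6122 to 6394 and 6033 to 6334 FPKM, and red cell markers (4 of 8) at 2.29 to 3.63 and 2.499 to 3.35 FPKM. The ranges of all these sums overlapped between the stages. Of the 8 endothelial markers, 7 were higher and 1 lower on average in pubertal goats. Among them VWF lay wholly higher, at 7.24, 4.96 and 7.19 against 3.24, 4.77 and 3.90 FPKM. Neuron markers (8 of 8) were at 1158 to 1430 and 1355 to 1456 FPKM, each of the 8 lower on average in pubertal goats. Oligodendrocyte markers (6 of 6) were at 1486 to 4664 and 1097 to 2290 FPKM.

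**Figure D5:**
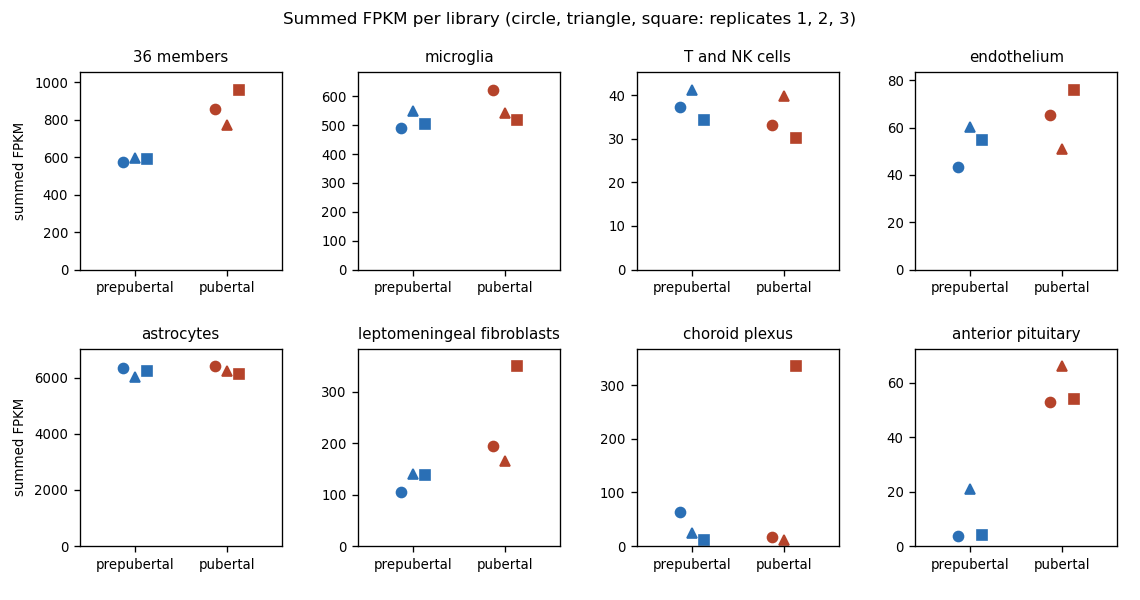
Summed FPKM per library of the 36 interferon-stimulated genes and of 7 lists of cell type markers, in prepubertal (blue) and pubertal (red) goats, with the replicate shown by the symbol. Sums of microglia, T and NK cell, endothelial and astrocyte markers overlap between the stages, those of leptomeningeal fibroblasts and anterior pituitary do not, and choroid plexus stands out in pubertal 3.

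The 2 sums that did not overlap, and that of choroid plexus, ordered the pubertal goats in separate ways. The fibroblast sum was 195, 166 and 349 FPKM in pubertal 1, 2 and 3, with pubertal 3 highest and pubertal 2 lowest as in the sum of the 36 genes (857, 771 and 959 FPKM). The pituitary sum was 52.8, 66.04 and 54.0 FPKM, highest in pubertal 2. The choroid plexus sum was 16.5, 11.0 and 335 FPKM, and in pubertal 1 and 2 it lay inside the prepubertal range or just below it. The endothelial sum, which overlapped between the stages, was 65.5, 50.9 and 76.0 FPKM in pubertal 1, 2 and 3. In prepubertal 1, 2 and 3 it was 43.5, 60.1 and 54.65 FPKM, where the sum of the 36 genes was 575, 596 and 591 FPKM. Within each stage the endothelial sum thus put the goats in the same order as the sum of the 36 genes. The part of fibroblast, pituitary, choroid plexus and endothelial tissue in the values of the 36 genes was not tested.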

How the data were processed

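Hypothalamus RNA of 3 pubertal and 3 prepubertal goats was sequenced, aligned with TopHat and assembled by Scripture and Cufflinks 2.1.1, and the authors compared the stages by Cuffdiff 2.1.1. The genome build is not given in the sources used here. The deposited mRNA table holds FPKM for 30679 transcripts in each library, which the authors scaled for length and depth. The authors' own comparison served only to assign transcripts to genes and to give transcript lengths. Its group means, folds, p-values and q-values were not used, nor were the lncRNA tables. All per-sample columns of the mRNA table were used (0 left out).

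FPKM was summed by gene. A RefSeq table (ARS1.2) gave gene order and symbols for 19083 of 20225 genes (94.4%). Genes with a mean of at least 0.1 FPKM (16397) entered limma 3.58.1 under R 4.3.3 (lmFit, then eBayes with trend, two-sided) on log2(FPKM + 1). The adjustment was that of Benjamini and Hochberg, with 0.05 as the limit. Exact permutation of 3 against 3 cannot go below p = 0.1 and was not used. In simulated data for this comparison (16397 genes), limma recovered 81% of genes changed by 1 and 98% of those changed by 2 on the log2 scale. There were 13 false calls. Only genes with a mean log2(FPKM + 1) above 1 were changed, and noise was drawn independently for each gene. Changes smaller than 1, the size of most differences given here, were not simulated, so their recovery is not known. The FPKM of 1 fragment was read from the lowest step of FPKM times length in genes with 1 transcript of at least 2000 nt, so fragment numbers are approximate and cover counting only. Python 3.11.15 (numpy 2.4.6, pandas 2.3.3, matplotlib 3.10.9) did the rest.

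The list of 40 genes, the pathway lists and the marker lists were chosen with earlier results of these data known. Named were all genes of the list with a row, up to 3 genes per pathway list and direction with the largest difference among those whose stages did not overlap, the 5 genes most alike in pattern, and defining markers. The interferon genes were named after their values were seen. Alternatives were 0.1 as the pseudocount, no minimum or a minimum of 1 FPKM, quantile normalization, centring, limma without trend, the most abundant transcript, the replicate number as a block, and leaving out each library. Promoter and protein sequences were not analysed here. Values of some withheld genes are not reported here.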

Additional observations from a re-analysis of the deposited data

How the results depend on the processing

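In 14 alternatives the number of the 36 genes higher in pubertal goats was 32 to 36, and 32 genes kept 1 sign throughout, while IFNAR1, IFNAR2, ADAR and CMPK2 changed sign in at least 1 setting. Of the log2 differences of single genes, ZBP1 moved to 2.18 with a pseudocount of 0.1 and ADAR to -0.01 with centring. The median log2 difference was 0.36 to 0.52 when single libraries were left out, 0.50 with a pseudocount of 0.1 and 0.40 with centring. The number of genes with an adjusted p under 0.05 by limma, 0 at first, was 0 to 4 when single libraries were left out, with 4 without pubertal 2 and 1 without prepubertal 2 or 3. At an unadjusted p under 0.05, 846 genes became 502 (without prepubertal 1) to 2223 (without pubertal 1), with 338 to 984 higher and 164 to 1239 lower, and centring gave 407 lower. Without pubertal 1 the share of higher genes was 44.3%, against 68.0%. No pathway gene outside the list passed the adjusted threshold in any of the 14. The causes were not tested.

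With the replicate number as a block, 1 gene passed the adjusted threshold and 847 the unadjusted one. The numbers did not pair the goats, since deviations from the stage means correlated at -0.0246, -0.101 and 0.0752 for numbers 1, 2 and 3. The log2 differences cannot move under a balanced block. Depth limits ZBP1 and BST2 most, at about 12 and 43 fragments in their lowest libraries.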

Other observations

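Outside the list, the pathway lists and the marker lists, the pattern of the 36 genes over the 6 libraries was met most closely by 5 genes, chosen by their Pearson r with the mean standardised log2(FPKM + 1) of the 36 genes among 13890 genes with a mean of at least 1 FPKM. Of these candidates 53 had an r above 0.95 and 22 an r as far on the negative side, over 6 libraries. The closest was the gene with NCBI identifier 102185558, which matched no symbol, with r = 0.995 and 15.8, 12.3 and 23.4 FPKM in pubertal and 5.001, 5.61 and 5.15 FPKM in the prepubertal goats. Gene 102190722, also without a symbol, had r = 0.993 and 6.22, 5.17 and 8.45 FPKM against 3.14, 3.50 and 3.39 FPKM. SLC2A1, the glucose transporter of the blood-brain barrier and of astrocytes, had r = 0.992 and 70.1, 65.6 and 75.5 FPKM against 58.9, 59.3 and 58.6 FPKM. AOAH, an enzyme that inactivates bacterial lipopolysaccharide, had r = 0.990 and 2.62, 2.42 and 3.08 FPKM against 1.46, 1.84 and 1.58 FPKM. LOC102178567 had r = 0.985 and 4.15, 4.10 and 4.92 FPKM against 2.59, 2.81 and 2.55 FPKM. In each of the 5 the stages did not overlap and pubertal 3 was highest, a pattern that the choice by r brings with it.

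Among the other interferon-stimulated genes, 4 more were picked after their values were seen, all with every pubertal library above every prepubertal one. TAP1, which carries peptides to MHC class I, was at 8.17, 9.19 and 8.19 FPKM in the pubertal goats and at 5.91, 5.74 and 5.78 FPKM in the prepubertal goats. B2M, the light chain of MHC class I, was at 104, 81.3 and 111 FPKM against 62.0, 72.8 and 74.0 FPKM. RNF213, a large ubiquitin ligase induced by interferon, was at 8.34, 8.14 and 11.1 FPKM against 5.18, 5.68 and 5.71 FPKM. IDO1, which breaks down tryptophan, was at 0.515, 1.119 and 1.29 FPKM against 0.491, 0.148 and 0.201 FPKM. Their limma adjusted p-values over all genes were between 0.676 and 0.795.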
